A study of Mus musculus with 31 samples.

Results

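The 28 genes described here make cholesterol, control its synthesis through the transcription factor SREBP2, or move sterols into and within the cell. They are listed by gene name, and each has 1 row among the 43629 genes of the table. All 28 passed the filter on low counts and are among the 17057 genes tested. By role they are 7 enzymes from acetyl-CoA to farnesyl pyrophosphate, 1 enzyme of the geranylgeranyl branch, 3 enzymes from farnesyl pyrophosphate to lanosterol, 9 enzymes from lanosterol to cholesterol, 4 proteins of SREBP2 control and 4 proteins of uptake and transport.

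RNA sequencing was done on livers of 31 mouse pups of the C57Bl/6J background at postnatal day 14. Every pup, controls included, carried the Dio1KO/Dio2KO genotype, and so lacked the deiodinases that turn the prohormone T4 into T3, the ligand of the thyroid hormone receptors. The 5 control pups were Dio1KO/Dio2KO/Pax8Het and received vehicle (called control). The other pups were Dio1KO/Dio2KO/Pax8KO, without the transcription factor PAX8 that the thyroid needs to form, and received vehicle (5 pups, called vehicle), T4 (8 pups), T3 (6 pups) or both hormones (7 pups, called T3+T4). Injections were given every other day from postnatal day 2. Hormone doses and litters are not given in the sources used here, and no wild-type pup is among the groups. The comparisons ask what the lack of a thyroid, and its replacement by T4, T3 or both, do to these livers when neither deiodinase is present.

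Each library is 1 pup, and the libraries hold between 4383769 and 7158919 counts each, with group means from 5297107 in vehicle to 6353684 after T3+T4. Judged by Xist and Y-linked genes, 4 of 5 control, 2 of 5 vehicle, 2 of 8 T4, 5 of 6 T3 and 2 of 7 T3+T4 pups were female. A sex stands in the names of 20 libraries, and in 4 of them it does not match these genes: vehicle animal 67, T4 animal 54 and T3+T4 animal 79 are named female and had the Y-linked genes, and T3 animal 68 is named male and had Xist without them. These libraries are called by their labelled group throughout, and results are also given without all 4, an alternative chosen after seeing the data. Pax8 had a median of 6 counts in control and of 8 in vehicle, Dio2 of 17 and 15, and Dio1 of 840 and 69, and it is not given which part of each gene was deleted, so these counts do not check the genotypes. Hepatocyte markers were found in every library, with group medians of 3330 to 3810 CPM (counts scaled for library size by TMM) summed over 8 genes. Of these, Alb averaged 573 CPM, less than Cps1 at 885 CPM, and no gene matched to an exon length averaged over 2.41 counts per base. Whether processing limited the counts of abundant genes, and so their levels and fold changes, was not tested. Markers of pancreatic acinar cells or skeletal muscle, which liver lacks, averaged at least 5 CPM in 1 control, 2 vehicle, 3 T4, 2 T3 and 4 T3+T4 libraries. A gene was called where the adjusted p of edgeR's quasi-likelihood test, corrected by Benjamini-Hochberg over the 17057 tested genes, was under 0.05. In a bulk sample, fewer cells of a type and less RNA per cell cannot be told apart.

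Cholesterol is built from acetyl-CoA through mevalonate, farnesyl pyrophosphate, squalene and lanosterol. SREBP2 is a membrane protein of the endoplasmic reticulum that INSIG proteins hold back, together with its escort SCAP, while sterols are plentiful. When sterols fall, SCAP carries SREBP2 to the Golgi, where proteases release a fragment that enters the nucleus and activates genes of sterol synthesis and uptake. This fragment binds sterol regulatory elements in promoters, usually next to sites for NF-Y, which reads CCAAT, and for SP1, which reads GC-rich boxes. The liver is a main site of this synthesis, and thyroid hormone has long been known to lower serum cholesterol.

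The promoters below are shown because the results turn on these genes or on a contrast between them. Hmgcs1, Mvd, Nsdhl, Sc5d and Srebf2 were higher after T3+T4 than in vehicle, and Mylip was lower. Each stretch is the part of the 250 bases before the RefSeq start that lies before the first annotated transcript start, read 5′ to 3′ on the gene's own strand from the RefSeq table of GRCm38.p6. They lie at chr13:119690101-119690350 for Hmgcs1 (plus strand), chr8:122443423-122443672 for Mvd (minus strand), chrX:72918271-72918520 for Nsdhl (plus), chr9:42264301-42264550 for Sc5d (minus), chr15:82147019-82147180 for Srebf2 (plus) and chr13:45389492-45389741 for Mylip (plus). Capitals mark CCAAT and CACNCCAC, the core of the classic sterol regulatory element, on either strand.
Hmgcs1: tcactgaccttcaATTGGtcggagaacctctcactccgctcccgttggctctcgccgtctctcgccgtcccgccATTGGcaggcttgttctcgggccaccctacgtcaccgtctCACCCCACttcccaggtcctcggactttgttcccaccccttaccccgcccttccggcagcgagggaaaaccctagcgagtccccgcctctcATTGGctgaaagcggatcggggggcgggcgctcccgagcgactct
Mvd: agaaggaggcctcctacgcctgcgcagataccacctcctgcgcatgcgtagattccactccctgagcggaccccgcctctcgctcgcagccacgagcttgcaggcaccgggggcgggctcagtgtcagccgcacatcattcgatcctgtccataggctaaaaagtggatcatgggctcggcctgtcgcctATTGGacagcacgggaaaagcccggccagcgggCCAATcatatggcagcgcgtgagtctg
Nsdhl: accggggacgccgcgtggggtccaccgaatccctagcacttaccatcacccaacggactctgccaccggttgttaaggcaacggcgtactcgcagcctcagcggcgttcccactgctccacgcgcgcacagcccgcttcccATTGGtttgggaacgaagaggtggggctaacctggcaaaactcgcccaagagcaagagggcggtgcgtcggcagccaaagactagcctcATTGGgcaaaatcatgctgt
Sc5d: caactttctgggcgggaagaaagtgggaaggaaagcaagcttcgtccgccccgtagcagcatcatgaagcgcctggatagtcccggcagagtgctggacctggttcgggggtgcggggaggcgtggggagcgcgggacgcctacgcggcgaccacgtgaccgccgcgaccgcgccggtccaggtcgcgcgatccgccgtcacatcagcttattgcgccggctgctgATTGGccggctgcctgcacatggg
Srebf2: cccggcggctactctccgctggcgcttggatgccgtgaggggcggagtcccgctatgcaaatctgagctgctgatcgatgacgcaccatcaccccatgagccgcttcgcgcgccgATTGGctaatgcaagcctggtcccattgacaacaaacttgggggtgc
Mylip: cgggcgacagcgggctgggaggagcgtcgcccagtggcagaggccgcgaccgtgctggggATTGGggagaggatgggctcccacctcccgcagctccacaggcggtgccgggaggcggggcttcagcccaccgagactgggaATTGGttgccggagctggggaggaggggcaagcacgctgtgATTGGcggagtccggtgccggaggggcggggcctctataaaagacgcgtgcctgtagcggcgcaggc

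Of the 28 genes, 23 had an entry in the promoter table, and Fdps, Fdft1, Sqle, Npc1 and Stard4 did not. CCAAT, searched on both strands in the 250 bases before the start, was found in 20 of the 23 promoters (86.96%), against 34.46% of the promoters of all 27025 genes in the table and 36.15% of those of 10934 tested genes. The GC box GGGCGG was found in 19 of 23 (82.61%), against 32.94% and 56.0%. CACNCCAC was found in 3 (13.04%; Acat2, Hmgcs1 and Insig1), against 5.16% and 5.39%, and the longer TCACNCCAC, which contains it, in Hmgcs1 only, against 1.04% of all genes. CACGTG and AGGTCA, the hexamer read by thyroid hormone receptors and other nuclear receptors, were each found in 3 of 23 (13.04%), against 6.05% and 13.84% of all genes. In the sequences above, Hmgcs1 holds 3 CCAAT copies and Mylip, which went the other way from Hmgcs1 in the livers, also holds 3. These matches describe the letters of these windows and are not measured binding sites.

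In vehicle livers 10 of the 28 genes were lower than in control and 1 was higher, where 9.63% of all genes tested were called. After T3+T4 17 of the 28 were higher than in vehicle and 1 was lower, where 15.8% of all genes were called. After T4 alone 1 gene was higher than in vehicle (0.41% of all genes called), and after T3 alone 4 were (6.77%). Group means of Idi1, which isomerises the first isoprenoid unit, ran from 18.8 CPM in vehicle through 25.4 after T4, 44.8 after T3 and 88.1 in control to 148 after T3+T4. The comparisons with vehicle share its 5 libraries, and each is reported with its own values. All T3+T4 animals were numbered 72 to 85, and no animal of another group was. What the numbers stand for is not given. For T3+T4, which also had the highest mean count per library, treatment and animal number cannot be told apart. The subset of animals 54 to 85, used below, does not separate them.

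**Figure D1:**
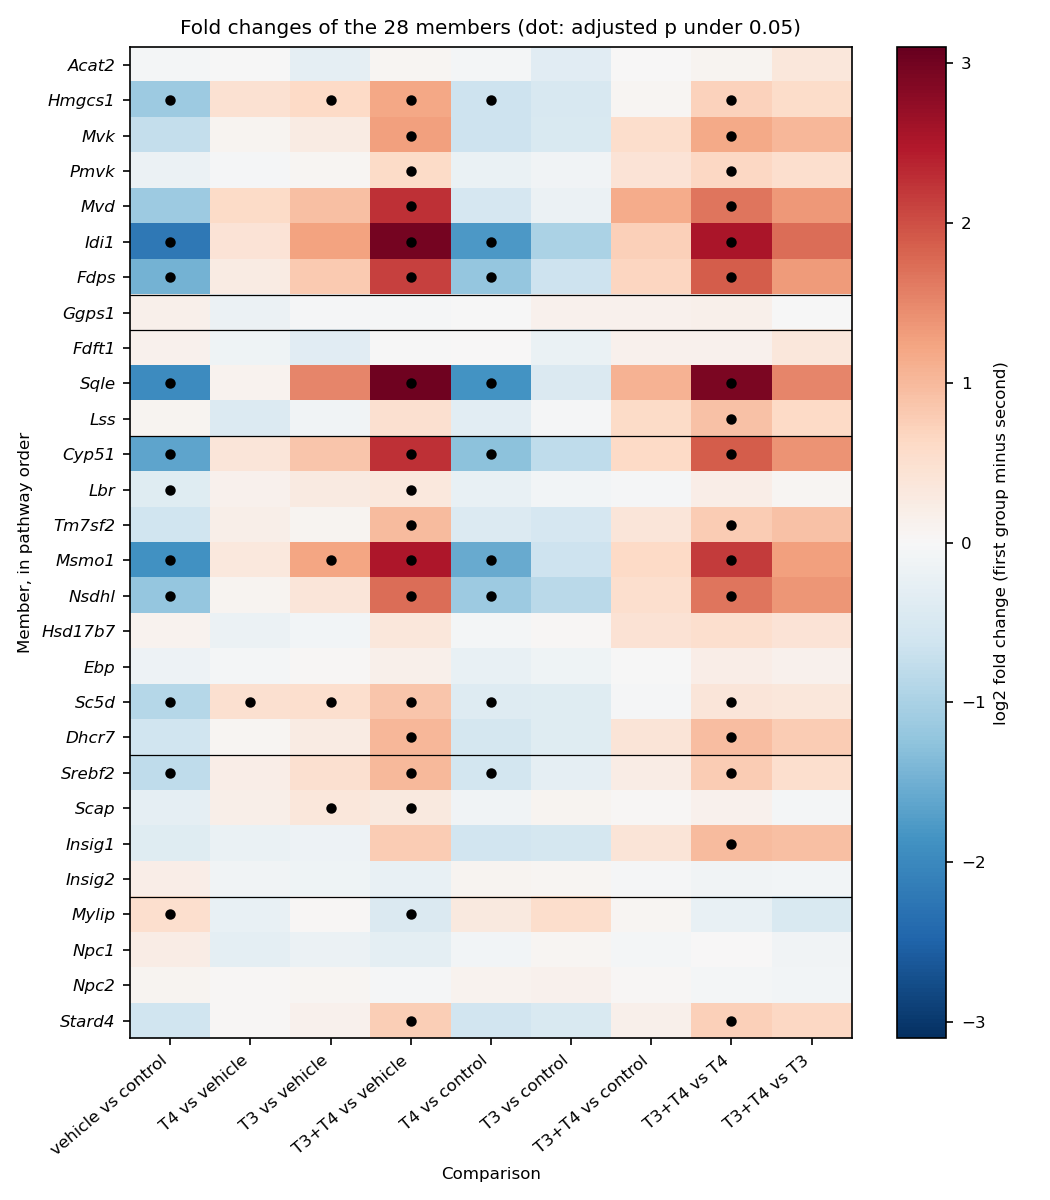
Log2 fold changes of the 28 genes (rows, in pathway order with lines between the 6 roles) in 9 comparisons (columns, first group against second), with colour giving the size and direction and a dot an adjusted p under 0.05. Dots are densest for T3+T4 against vehicle, where 18 genes passed, and for T3+T4 against T4, where 17 did; Acat2, Ggps1, Fdft1, Hsd17b7, Ebp, Insig2, Npc1 and Npc2 have none.

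In vehicle livers, which lacked Pax8 and received no hormone, sterol enzymes were lower than in control at several steps of the route. Of all genes tested, 9.63% were called in this comparison (4.92% higher and 4.71% lower), against 11 of these 28, with 10 lower and 1 higher. The log2 fold change is the first group named minus the second, and its median was −0.50 over the 28 genes and 0.01 over all genes. For 8 of them every vehicle library lay below every control library, as did 4.92% of all genes, and for none of them was the reverse true (4.37% of all genes).

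Sc5d, the sterol desaturase that acts late in the route (chr9:42251595-42264256, minus strand, mm10), had the smallest adjusted p. Its control libraries held 308, 356, 376, 377 and 419 CPM and its vehicle libraries 124, 192, 201, 216 and 256 CPM. The groups did not overlap, and the vehicle library of animal 67 was the lowest. The vehicle mean of 198 ± 47.7 CPM (SD, n = 5) was 1.86-fold below the control mean of 367 ± 40.4 CPM (SD, n = 5) (log2 fold change −0.89, SE 0.13, edgeR adjusted p = 4.64e-05).

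Hmgcs1, the cytosolic synthase that makes HMG-CoA (chr13:119690379-119708260, plus strand), was 2.17-fold lower in vehicle. Its values were 269, 292, 337, 406 and 434 CPM in control and 130, 136, 161, 183 and 191 CPM in vehicle, again with no overlap. This is a log2 fold change of −1.12 (SE 0.19, edgeR adjusted p = 0.000294).

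Msmo1, the methylsterol monooxygenase that removes methyl groups from lanosterol's products (chr8:64718139-64733792, minus strand), was 3.69-fold lower. Control livers held 39.1, 49.2, 109, 131 and 166 CPM and vehicle livers 17.9, 26.1, 28.4, 29.0 and 31.9 CPM. The groups did not overlap, and the control livers themselves formed a low pair (animals 47 and 42) and a high trio (animals 59, 49 and 50). The log2 fold change was −1.88 (SE 0.38, edgeR adjusted p = 0.00215).

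Of the other enzymes before squalene, Idi1 was 4.66-fold lower in vehicle (adjusted p = 0.00449) and Fdps, the farnesyl pyrophosphate synthase, 2.74-fold lower (0.00801). Mvk and Mvd, the mevalonate kinase and decarboxylase, had log2 fold changes of −0.73 and −1.12 and did not pass (edgeR adjusted p = 0.0585 and 0.0671). Acat2 and Pmvk lay within 1.13-fold of control. Sqle, the squalene epoxidase, was 3.87-fold lower (adjusted p = 0.0397), while Fdft1 and Lss, which act just before and just after it, had log2 fold changes of 0.14 and 0.08 and did not pass. Among the later enzymes Cyp51, the lanosterol demethylase, was 3.103-fold lower (adjusted p = 0.00724), Nsdhl 2.31-fold lower (0.0237) and Lbr 1.29-fold lower (0.0486). Tm7sf2 and Dhcr7 were 1.52-fold and 1.54-fold lower on average and did not pass (edgeR adjusted p = 0.187 and 0.113), and Hsd17b7 and Ebp lay within 1.12-fold.

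The Srebf2 transcript itself was 1.72-fold lower in vehicle (log2 fold change −0.79, SE 0.16, edgeR adjusted p = 0.00261). Its control libraries held 112, 121, 163, 176 and 181 CPM and its vehicle libraries 77.2, 81.1, 83.2, 84.9 and 110 CPM, with no overlap. Scap, Insig1 and Insig2 did not pass, at log2 fold changes of −0.28, −0.38 and 0.20. Mylip, the ubiquitin ligase that marks lipoprotein receptors for degradation, was the 1 gene that rose, 1.43-fold (adjusted p = 0.0378). It held 57.4, 61.9, 70.3, 73.0 and 88.3 CPM in control and 81.5, 92.3, 95.2, 112 and 122 CPM in vehicle, where the lowest vehicle library lay under the highest control library. Stard4, which carries cholesterol between membranes, was 1.53-fold lower on average and did not pass (edgeR adjusted p = 0.0823), and Npc1 and Npc2, which export cholesterol from late endosomes, had log2 fold changes of 0.23 and 0.07.

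Of the 11 calls, 7 were kept when any 1 library was left out (Hmgcs1, Idi1, Fdps, Cyp51, Msmo1, Sc5d and Srebf2), and the count was 7 without control animal 49, control animal 50 or vehicle animal 38. Libraries with raised acinar or muscle markers were 1 of 5 in control and 2 of 5 in vehicle. Without all such libraries 7 were called against 4.09% of all genes, with log2 fold changes of −0.99 for Sc5d, −1.28 for Hmgcs1 and −1.98 for Msmo1. Among animals 54 to 85 alone, which leaves 1 control and 2 vehicle libraries, 0 passed against 0.0162% of all genes. With sex as a covariate 9 passed, and the share of all genes in that fit is not given here. Without the 4 libraries of unmatched sex 11 passed, all lower, against 6.43% of all genes, and 9 of these were among the 11 calls above. The log2 fold changes were then −0.76 for Sc5d, −1.05 for Hmgcs1 and −1.66 for Cyp51, and the calls of Lbr and Mylip were lost (edgeR adjusted p = 0.0591 and 0.123).

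Some markers of other cells were also called between vehicle and control livers, where 9.63% of all genes tested were called. With 1 or 2 calls in a list, no difference in cell content is read from these counts. Of 7 erythroid, 7 lymphocyte and 5 cholangiocyte markers tested 0 were called. Of 8 granulocyte markers 8 had positive log2 fold changes, with a median of 0.91, and 1 was called higher, and their summed level was 40.4 to 138 CPM in control and 90.3 to 313 CPM in vehicle. Of 7 stellate cell markers 2 were lower, at 1140 to 1190 CPM summed in control and 846 to 1060 CPM in vehicle. Of 6 Kupffer cell markers 1 was lower, and of 7 endothelial markers 1 was higher. None of 8 hepatocyte, 7 acinar and 5 muscle markers tested was called by edgeR, with 1, 2 and 0 at an unadjusted p under 0.05, and the part of these markers in the result was not tested beyond leaving out the raised libraries.

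**Figure D2:**
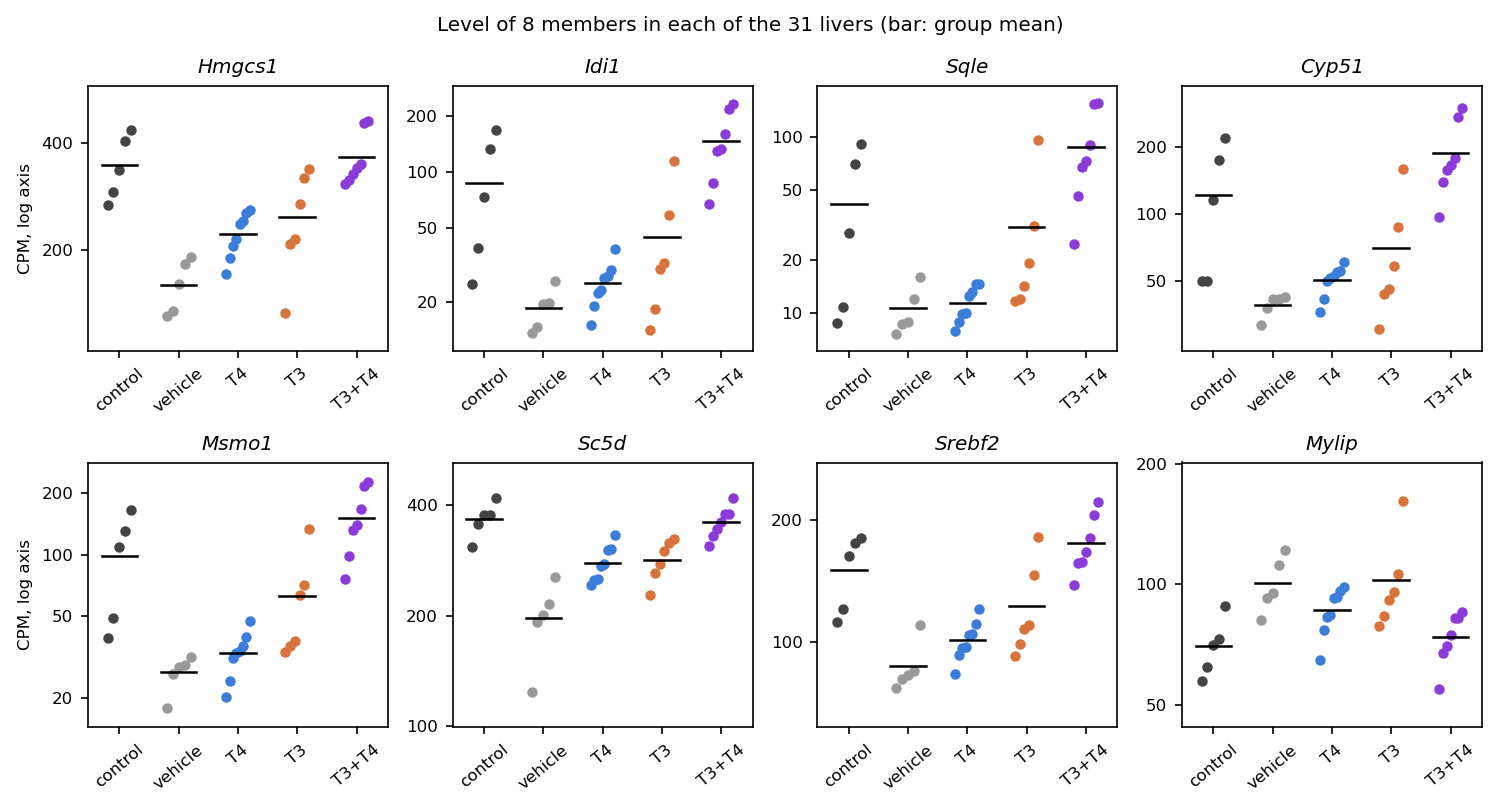
CPM on a log axis of 8 genes in each of the 31 livers by group, each point 1 animal and each bar the group mean. For 7 of the genes the T3+T4 and control means lie above the vehicle mean, the reverse for Mylip; Sqle in control runs from 8.81 to 90.6 CPM and in vehicle from 7.63 to 16.02 CPM.

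T4 was compared with vehicle in pups that cannot convert it by type 1 or type 2 deiodinase. Of the 28 genes 1 passed, Sc5d, which was higher, while 0.41% of all genes passed (0.211% higher and 0.199% lower). The median log2 fold change was 0.08 over the 28 genes and 0.00 over all genes, with 17 genes above 0 and 11 below. For 0 of the 28 genes did the T4 and vehicle libraries separate fully, against 0.393% of all genes upwards and 0.422% downwards. Of 7 tested acinar markers 1 was called lower after T4, with a median log2 fold change of −3.905 over the 7. Of 5 tested muscle markers 0 were called, with a median of 3.676 and 5 at an unadjusted p under 0.05 by edgeR. Their part in the result was not tested beyond leaving out the raised libraries, as given for Sc5d below.

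Sc5d ran from 242 through a median of 275 to 332 CPM in the 8 T4 libraries, against 124 to 256 CPM in the 5 vehicle libraries listed above. Of the T4 libraries, 3 (animals 69, 43 and 71) lay under the highest vehicle library. The rise was 1.41-fold (log2 fold change 0.50, SE 0.12, edgeR adjusted p = 0.0474). This call was lost when any of 25 of the 31 libraries was left out, without the libraries with raised acinar or muscle markers, where the log2 fold change was 0.57, with sex as a covariate, and without the 4 libraries of unmatched sex, where it was 0.35 (edgeR adjusted p = 0.131).

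Hmgcs1 came next, with 171, 226 and 259 CPM as the lowest, median and highest T4 values, partly overlapping the vehicle range of 130 to 191 CPM. Its log2 fold change was 0.47 (SE 0.17, edgeR adjusted p = 0.208). Npc1 ran from 150 through 181 to 260 CPM after T4 and held 196, 201, 241, 248 and 273 CPM in vehicle, so that the groups overlapped. Its log2 fold change was −0.30 (SE 0.14, edgeR adjusted p = 0.376).

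The genes with the largest fold changes after T3+T4 did not pass after T4. Sqle averaged 11.5 CPM after T4 and 10.7 in vehicle, a log2 fold change of 0.10 with a 95% interval from −1.05 to 1.254. For Idi1 the log2 fold change was 0.43 (interval −0.47 to 1.33), for Cyp51 0.37 (−0.32 to 1.06), for Msmo1 0.32 (−0.37 to 1.01), for Mvd 0.60 (−0.11 to 1.32) and for Srebf2 0.22 (−0.07 to 0.51). Each of these intervals includes 0.

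After T3 alone 4 of the 28 genes were higher than in vehicle and 0 lower, where 6.77% of all genes were called (3.53% higher and 3.24% lower). The median log2 fold change was 0.19 over the 28 genes and 0.00 over all genes. For Lbr and Msmo1 all T3 libraries lay above all vehicle libraries, as did 1.77% of all genes, and for 0 genes were all below (1.84% of all genes). In this comparison 5 of 5 tested muscle markers were higher and 5 of 7 tested acinar markers lower after T3. Of 8 hepatocyte markers 2 were called lower, with 8 log2 fold changes negative. Of 6 Kupffer cell markers 1 was called higher, with 6 positive. The summed muscle level ran from 5.68 to 355 CPM after T3 and from 2.22 to 9.76 CPM in vehicle, and the acinar level from 2.90 to 14.9 and from 3.87 to 214 CPM. The part of all these markers in the result was not tested beyond leaving out the raised libraries, as given below.

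Sc5d rose 1.44-fold, from the vehicle values above to a lowest, median and highest value of 228, 288 and 325 CPM in the 6 T3 libraries. The T3 library of animal 61, the lowest, lay inside the vehicle range. The log2 fold change was 0.53 (SE 0.12, edgeR adjusted p = 0.01).

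Scap, the sterol-sensing escort of SREBP2 (chr9:110333288-110384950, plus strand), rose 1.29-fold. It held 143, 162, 166, 178 and 227 CPM in vehicle and ran from 186 through 213 to 269 CPM after T3, with vehicle animal 67 inside the T3 range. Its log2 fold change was 0.36 (SE 0.10, edgeR adjusted p = 0.0289).

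Hmgcs1 ran from 133 through 242 to 338 CPM after T3, and only animal 61 of the T3 group lay under the highest vehicle library. Its log2 fold change was 0.63 (SE 0.18, edgeR adjusted p = 0.0316). Msmo1 rose 2.35-fold, with 33.6, 50.8 and 133 CPM as the lowest, median and highest T3 values (adjusted p = 0.0401). Srebf2 had a log2 fold change of 0.50 and just missed the threshold (edgeR adjusted p = 0.0516). Idi1, Sqle and Cyp51 averaged 2.37-fold, 2.86-fold and 1.81-fold above vehicle and did not pass (edgeR adjusted p = 0.111, 0.121 and 0.166). These 3 averages rest on T3 animal 68: without it the log2 fold changes were 0.72, 0.74 and 0.45, against 1.52 for Sqle and 0.85 for Cyp51 with it (without it, edgeR adjusted p = 0.36, 0.457 and 0.478).

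Only Sc5d kept its call when any 1 library was left out. The count of 4 dropped to 1 without vehicle animal 37, vehicle animal 38 or T3 animal 68, and to 2 without vehicle animal 2019, vehicle animal 55 or T3 animal 60. Without the libraries with raised acinar or muscle markers 0 of the 28 genes passed against 0.492% of all genes, and the log2 fold changes were 0.55 for Sc5d, 0.68 for Hmgcs1 and 1.23 for Msmo1. With sex as a covariate 1 passed, and with the 2 groups fitted alone 0 passed. The shares of all genes in these fits are not given here. Without the 4 libraries of unmatched sex 1 passed (Scap), against 4.46% of all genes, with log2 fold changes of 0.36 for Sc5d, 0.45 for Hmgcs1 and 0.94 for Msmo1 (edgeR adjusted p = 0.0581, 0.179 and 0.135).

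After T3+T4 the synthesis route was higher than in vehicle at most of its steps. Of the 28 genes 18 passed, 17 higher and 1 lower, where 15.8% of all genes were called (7.33% higher and 8.45% lower). The median log2 fold change was 0.78 over the 28 genes and 0.00 over all genes. For 12 of the 28 every T3+T4 library lay above every vehicle library, against 3.54% of all genes, and for 0 every library lay below (4.47% of all genes).

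By role, 6 of the 7 enzymes up to farnesyl pyrophosphate rose, 1 of the 3 enzymes from there to lanosterol, 7 of the 9 later enzymes, 2 of the 4 proteins of SREBP2 control and 1 of the 4 proteins of uptake and transport. Ggps1, which draws farnesyl pyrophosphate towards protein prenylation, had a log2 fold change of −0.04. The largest fold changes were those of Sqle at 8.12-fold, Idi1 at 7.82-fold, Msmo1 at 5.65-fold, Mvd at 4.82-fold, Cyp51 at 4.77-fold, Fdps at 4.38-fold and Nsdhl at 3.34-fold.

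Sc5d ran from 310 through 360 to 419 CPM after T3+T4, above all vehicle libraries. It rose 1.82-fold (log2 fold change 0.87, SE 0.12, edgeR adjusted p = 1.68e-05). Hmgcs1 ran from 307 through 341 to 463 CPM, again above all vehicle libraries, and rose 2.28-fold (log2 fold change 1.19, SE 0.18, adjusted p = 3.92e-05). Msmo1 ran from 75.9 through 140 to 225 CPM, so that its lowest T3+T4 library was above the highest vehicle library of 31.9 CPM (log2 fold change 2.50, SE 0.37, edgeR adjusted p = 3.92e-05).

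Sqle, which passed with the largest fold (chr15:59315077-59331192, plus strand), held 7.63, 8.69, 8.91, 12.0 and 16.02 CPM in vehicle. After T3+T4 it ran from 24.7 through 72.9 to 155 CPM, with no overlap (log2 fold change 3.02, SE 0.59, edgeR adjusted p = 0.000833). Idi1 (chr13:8885501-8892451, plus strand) held 13.7, 14.7, 19.52, 19.9 and 26.1 CPM in vehicle and ran from 67.3 through 134 to 233 CPM after T3+T4 (adjusted p = 0.000109). Fdps (chr3:89093588-89101959, minus strand) ran from 8.28 to 13.9 CPM in vehicle and from 24.2 to 77.6 CPM after T3+T4 (adjusted p = 7.12e-05). In each of these 3 genes T3+T4 animal 79 was the lowest of its group and animal 84 the highest.

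Srebf2 rose 2.01-fold (log2 fold change 1.01, SE 0.15, edgeR adjusted p = 5.43e-05), from 77.2 to 110 CPM in vehicle to between 138 and 222 CPM. Scap rose 1.24-fold (adjusted p = 0.0314). Insig1, which is itself induced by SREBP2, was 1.72-fold higher on average and did not pass (edgeR adjusted p = 0.0998). Insig2, which had the highest level per kilobase of the 28 genes, at 109 CPM per kb of exon over all libraries, had a log2 fold change of −0.23 and did not pass (edgeR adjusted p = 0.119).

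Stard4 rose 1.71-fold (adjusted p = 0.0128), from 127, 129, 161, 185 and 224 CPM in vehicle to between 234 and 310 CPM, with no overlap. Mylip fell 1.36-fold (log2 fold change −0.45, SE 0.15, edgeR adjusted p = 0.0347). Its T3+T4 libraries ran from 54.8 through 74.6 to 85.1 CPM and overlapped the vehicle range at vehicle animal 55. Npc1 and Npc2 did not pass, at log2 fold changes of −0.29 and −0.03.

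Of the 18 calls, 15 held when any 1 library was left out, and the count was never under 15. In every setting tried 10 were called (Hmgcs1, Mvk, Mvd, Idi1, Fdps, Cyp51, Msmo1, Nsdhl, Sc5d and Srebf2). Raised acinar or muscle markers were found in 4 of the 7 T3+T4 libraries. Without such libraries 13 of the 28 genes passed, and the log2 fold changes were 3.13 for Sqle, 3.15 for Idi1, 2.60 for Msmo1 and 0.93 for Sc5d. The share of 15.8% of all genes belongs to the fit of all 31 libraries, not to subsets of them. Among animals 54 to 85 alone 10 passed. Without the 4 libraries of unmatched sex 18 passed, 17 of them among the calls above, against 12.3% of all genes, with log2 fold changes of 3.38 for Sqle, 3.24 for Idi1, 2.69 for Msmo1 and 0.76 for Sc5d, and Mylip did not pass (edgeR adjusted p = 0.105). Of 8 granulocyte markers 8 had negative log2 fold changes, with a median of −0.63, and 1 was called lower, at 60.9 to 211 CPM summed after T3+T4. Of Kupffer, endothelial and stellate cell markers 1 each was called, higher, lower and lower. Hepatocyte markers fell in 4 of 8 genes after T3+T4, with a summed level of 2630 to 3760 CPM against 3540 to 4120 CPM in vehicle, and their part in these results was not tested.

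T4 and T3, each given alone, were also set against each other. Of the 28 genes 0 passed, by edgeR and by DESeq2. Of all genes 0.551% passed by edgeR at an adjusted p under 0.05 (0.158% higher and 0.393% lower after T4). By edgeR 4 of the 28 had an unadjusted p under 0.05, a threshold at which the share of all genes is not given. No gene of the 28 separated fully, as did 0.0821% of all genes upwards and 0.117% downwards. The median log2 fold change (T4 minus T3) was −0.16 over the 28 genes, with 24 of the 28 values below 0, and 0.001 over all genes. T3 animal 68, a library of unmatched sex, was the highest of its group for 18 of the 28. By Xist and Y-linked genes 2 of 8 T4 and 5 of 6 T3 pups were female.

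Msmo1 had the smallest adjusted p. Its T4 libraries ran from 20.2 through 33.5 to 47.7 CPM and its T3 libraries from 33.6 through 50.8 to 133 CPM, so that the groups overlapped. The log2 fold change was −0.91 (SE 0.31, interval −1.53 to −0.29, edgeR adjusted p = 0.186).

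For Sqle the T4 libraries ran from 7.93 through 11.2 to 14.7 CPM and the T3 libraries from 11.8 through 16.8 to 95.7 CPM. The highest T3 value, in animal 68, stood well above the next, 31.2 CPM in animal 60, and the groups overlapped. The log2 fold change was −1.42 (SE 0.50, interval −2.40 to −0.43, edgeR adjusted p = 0.199). Acat2, the thiolase that makes acetoacetyl-CoA (chr17:12942890-12960747, minus strand), went the other way, with 137, 181 and 212 CPM after T4 and 121, 145 and 190 CPM after T3 as the lowest, median and highest values (log2 fold change 0.27, SE 0.11, edgeR adjusted p = 0.249). Sc5d, called in both comparisons with vehicle, differed by −0.03 between T4 and T3 (interval −0.24 to 0.19).

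The treated livers were also set against the 5 control livers, which these comparisons share. Treated and control pups differ in both Pax8 genotype and hormone, which these comparisons cannot tell apart. After T4 9 of the 28 genes were still lower than in control and 0 were higher, where 3.54% of all genes were called (1.71% lower and 1.83% higher). The median log2 fold change was −0.41 over the 28 genes and 0.008 over all genes. For Hmgcs1 alone all T4 libraries lay under all control libraries, as did 0.956% of all genes, and for 0 genes did all lie above (0.844% of all genes).

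Msmo1 was 2.95-fold lower after T4 than in control (log2 fold change −1.56, SE 0.33, edgeR adjusted p = 0.00763), with T4 libraries of 20.2 to 47.7 CPM against control libraries of 39.1 to 166 CPM. Idi1 was 3.46-fold lower (log2 fold change −1.79, SE 0.41, adjusted p = 0.0155). It ran from 15.2 through 25.1 to 38.7 CPM after T4 and held 25.2, 39.5, 73.4, 133 and 170 CPM in control, where animal 47 lay inside the T4 range. Fdps was 2.31-fold lower (log2 fold change −1.21, SE 0.30, adjusted p = 0.0243), with 8.11, 12.3 and 19.96 CPM as the lowest, median and highest T4 values and 14.7, 19.3, 25.4, 41.5 and 50.1 CPM in control.

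Hmgcs1, Sqle, Cyp51, Nsdhl, Sc5d and Srebf2 were the other genes that were lower after T4 than in control, by 1.31-fold to 3.61-fold. These calls rest on few control livers. The count was 1, Msmo1, without control animal 49 or control animal 50, to 3 without T4 animal 70, and to 5 without control animal 59, T4 animal 43 or T4 animal 71. Without the libraries with raised acinar or muscle markers 1 passed, against 0.51% of all genes. With sex as a covariate 4 passed, where the share of all genes is not given here. Without the 4 libraries of unmatched sex 11 passed, all lower, against 3.17% of all genes.

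Between T3 and control livers 0 of the 28 genes passed by edgeR and 1 by DESeq2 (Mylip). Of all genes 0.211% were called by edgeR at an adjusted p under 0.05 (0.17% higher and 0.041% lower). By edgeR 11 of the 28 had an unadjusted p under 0.05, a threshold at which the share of all genes is not given. No gene of the 28 separated fully, against 1.41% of all genes upwards and 0.821% downwards. Mylip was 1.46-fold higher (log2 fold change 0.55, SE 0.15, edgeR adjusted p = 0.0856), at 78.5 to 162 CPM after T3 with a median of 93.6 CPM, against 57.4 to 88.3 CPM in control. The edgeR count was 1 without T3 animal 62. Sc5d had a log2 fold change of −0.37 (SE 0.12, edgeR adjusted p = 0.133). Acat2 had one of −0.34 (SE 0.12, edgeR adjusted p = 0.154), with 152, 180, 197, 199 and 204 CPM in control. For all 3 genes the groups overlapped.

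Between T3+T4 and control livers 0 of the 28 genes passed, by edgeR and by DESeq2. Of all genes 0% were called at an adjusted p under 0.05. By edgeR 7 of the 28 had an unadjusted p under 0.05, a threshold at which the share of all genes is not given. No gene of the 28 separated fully, against 0.287% of all genes upwards and 0.44% downwards. The median log2 fold change over the 28 genes was 0.30, with 23 of the 28 values above 0, and over all genes it was 0.005. Mvd (chr8:122433601-122443422, minus strand) held 5.51, 6.94, 9.91, 12.1 and 22.5 CPM in control and ran from 9.81 through 18.4 to 53.2 CPM after T3+T4. Its log2 fold change was 1.15 (SE 0.34, interval 0.49 to 1.81, edgeR adjusted p = 0.406). Pmvk (chr3:89454541-89469013, plus strand) held 30.5, 31.2, 37.9, 40.9 and 44.0 CPM in control and ran from 32.5 through 45.7 to 69.4 CPM (log2 fold change 0.42, SE 0.13, edgeR adjusted p = 0.413).

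Lss, the lanosterol synthase (chr10:76531588-76557138, plus strand), held 44.8, 48.1, 66.9, 74.3 and 89.0 CPM in control and ran from 57.5 through 89.8 to 157 CPM after T3+T4. Its log2 fold change was 0.58 (SE 0.23, edgeR adjusted p = 0.586). All 3 genes overlapped between the groups. For Sc5d and Hmgcs1 the intervals against control were −0.26 to 0.20 and −0.26 to 0.40.

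The effect of adding 1 hormone to the other was read from the T3+T4 livers. Against T4 alone, 17 of the 28 genes rose and 0 fell after T3+T4, where 8.61% of all genes were called (4.06% higher and 4.55% lower). For 8 of them all T3+T4 libraries lay above all T4 libraries, against 0.862% of all genes, and for 0 below, against 0.463%. Sqle rose 7.57-fold (adjusted p = 0.00031), Idi1 5.80-fold (0.000135), Msmo1 4.52-fold (4.83e-05), Fdps 3.69-fold (8.32e-05) and Cyp51 3.69-fold (0.00025). Lss and Insig1, not called against vehicle, rose 1.89-fold and 1.98-fold here (adjusted p = 0.00565 and 0.0274). All 7 tested acinar markers were also higher in T3+T4 than in T4 libraries. Without libraries with raised acinar or muscle markers 11 of the 28 genes passed, against 0.848% of all genes. Without the 4 libraries of unmatched sex 19 passed, against 8.12%.

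Against T3 alone, T3+T4 changed 0 of the 28 genes by edgeR and 11 by DESeq2, all higher. Of all genes 0.0117% passed by edgeR at an adjusted p under 0.05, all of them higher. By edgeR 21 of the 28 had an unadjusted p under 0.05, a threshold at which the share of all genes is not given. The share of all genes passing by DESeq2 is not given here, so its 11 calls cannot be read against 0.0117%. The edgeR adjusted p was between 0.0537 and 0.0638 for Mvk, Pmvk, Mvd, Idi1, Fdps, Cyp51 and Nsdhl, whose averages were 1.45-fold to 3.29-fold higher with both hormones. For Insig1 alone the libraries did not overlap (0.147% of all genes upwards and 0.0879% downwards), at 81.1 to 178 CPM after T3 and 189 to 322 CPM after T3+T4 (edgeR adjusted p = 0.212). The count of 0 became 8 without T3 animal 68 or T3+T4 animal 78, 6 without T3+T4 animal 79, 5 without control animal 47, 3 without T4 animal 40 and 2 without control animal 50. Without the 4 libraries of unmatched sex, which include T3 animal 68 and T3+T4 animal 79, 11 passed, all higher, against 0.216% of all genes, with log2 fold changes of 2.45 for Sqle, 2.38 for Idi1 and 0.70 for Srebf2 (edgeR adjusted p = 0.0112, 0.00597 and 0.0112).

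The interaction of T3 and T4, which asks whether the effect of both differs from the sum of the single effects on the log2 scale, passed for 0 of the 28 genes by edgeR and by DESeq2. Of all genes 0.135% passed by edgeR at an adjusted p under 0.05 (0.0997% higher and 0.0352% lower). An unadjusted p under 0.05 by edgeR was reached by 13 of the 28, and the share of all genes at that threshold is not given. Lss had the smallest adjusted p, with an interaction of 1.03 (SE 0.31, edgeR adjusted p = 0.196). Over all 5 groups 17 of the 28 genes differed, where 15.7% of all genes did.

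Livers of 1 group differed from each other more in this pathway, by the median, than over genes reaching its lowest mean level. The median coefficient of variation (SD divided by the mean) over the 28 genes was 20.7% in control, 17.5% in vehicle, 18% after T4, 30.1% after T3 and 20.2% after T3+T4. Over 11704 genes averaging at least 12.3 CPM, the mean of Mvd and lowest of the 28, it was 9.45%, 10.9%, 11.6%, 12.3% and 9.71%. Sqle had a coefficient of 88.0% in control and 106% after T3, and Npc2 one of 4.95% to 7.31% in all groups. The widest genes were Sqle, Idi1, Cyp51, Msmo1, Mvd, Nsdhl and Fdps in control, which are also those with the largest fold changes after T3+T4.

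**Figure D3:**
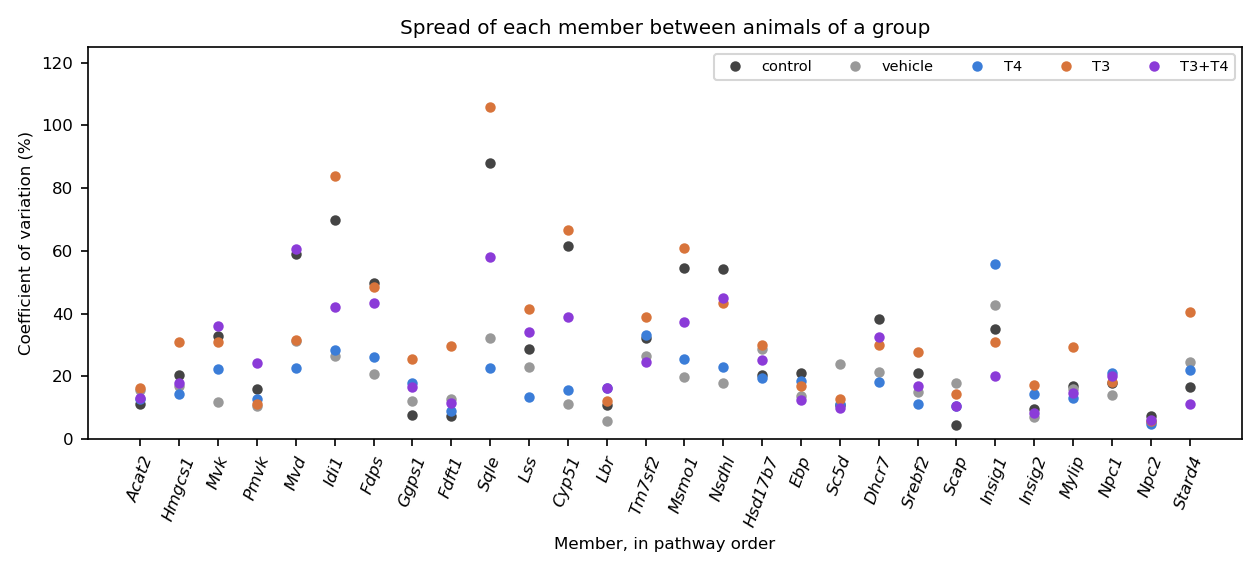
Coefficient of variation (%) between animals for each of the 28 genes in pathway order, each point 1 group. Sqle, Idi1, Cyp51 and Msmo1 reach 60.9% or more after T3 and 54.7% or more in control, while in vehicle no gene exceeds 42.8%.

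The same animals stood high or low for many genes at once. Control animal 50 was the highest of its group for 20 of the 28 genes, as it was for 17.8% of all genes, and control animal 47 the lowest for 14 (24.1% of all genes). T3 animal 68 was the highest of its group for 18 (14.1% of all genes) and T3 animal 61 the lowest for 14 (29.5%). T3+T4 animal 84 was the highest for 16 (11.4%) and animal 79 the lowest for 15 (11.9%). T3 animal 68 and T3+T4 animal 79 are 2 of the 4 libraries whose named sex did not match. In the T3 group animal 68 held 114 CPM of Idi1 and 158 CPM of Cyp51, above the control means of 88.1 and 122 CPM, while animal 61 held 14.2 and 30.4 CPM, within or below the vehicle range.

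**Figure D4:**
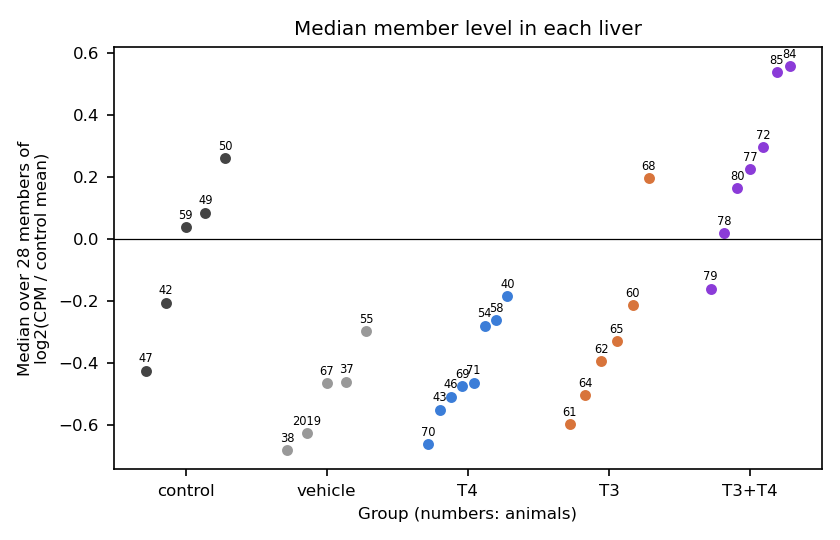
Median over the 28 genes of log2(CPM divided by the control mean) in each liver, with animal numbers, by group. Vehicle livers lie between −0.68 and −0.30 and T3+T4 livers between −0.16 and 0.56; T3 animal 68 stands at 0.20, above the other T3 livers.

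The 28 genes also differed in level per length. Over all libraries Insig2 held 109 CPM per kb of exon, Acat2 69.1, Sc5d 61.6, Hmgcs1 58.7 and Insig1 56.3, and the lowest were Lss at 6.37, Fdps at 5.84 and Ggps1 at 4.94. In vehicle Sqle held 1.92 and Fdps 2.59 CPM per kb, and after T3+T4 they held 15.7 and 11.4 CPM per kb.

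Genes around the pathway were followed in lists written with earlier results of these data known. Of 11 genes of SREBP processing and sterol-regulated degradation, 1 was higher in vehicle than in control (Rnf145, log2 fold change 0.32), where 4.92% of all genes were. Srebf1, the SREBP of fatty acid synthesis, did not pass in these comparisons, with log2 fold changes of −0.16 in vehicle against control and 0.06 after T3+T4 against vehicle. Mbtps1 and Mbtps2, the proteases that release SREBP2, lay between −0.06 and 0.14 in the same comparisons and did not pass.

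Of 11 genes of acetyl-CoA supply, electron donors and other SREBP2 targets, 2 were lower in vehicle than in control and 4 rose and 1 fell after T3+T4 against vehicle, where 9.63% and 15.8% of all genes were called. Rdh11 rose by a log2 fold change of 0.74 (SE 0.14, edgeR adjusted p = 0.000537) and Cyb5a fell by 0.35 (SE 0.07, adjusted p = 0.0012). Mmab, which shares a promoter region with Mvk in mouse and human and acts on vitamin B12, was lower in vehicle than in control (−0.59) and higher after T3+T4 than in vehicle (0.83). Of 11 genes that use isoprenoids for dolichol, ubiquinone or prenylation, 0 passed in vehicle against control (1 at an unadjusted p under 0.05, by edgeR) and Fnta alone passed after T3+T4, at −0.17.

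Of 18 genes of LXR, sterol esterification and efflux, vehicle livers held 3 at a higher and 1 at a lower level than control livers, and 1 rose and 7 fell after T3+T4 against vehicle. Of all genes 4.92% were higher and 4.71% lower in the first comparison and 7.33% higher and 8.45% lower in the second. LXR is the receptor that senses oxysterols and drives sterol export. Abcg8, a subunit of the transporter that sends cholesterol into bile, had log2 fold changes of 0.47 (SE 0.12, edgeR adjusted p = 0.0104) in vehicle against control and −0.56 (SE 0.11, adjusted p = 0.000654) after T3+T4 against vehicle. Gramd1c, which moves cholesterol between plasma membrane and endoplasmic reticulum, went the opposite way, at −0.69 (adjusted p = 0.0077) and 0.85 (0.000397). Mylip, an LXR target among the 28 genes, had the same signs as Abcg8 in both comparisons. Whether LXR had a part in any of these values was not tested.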

How the data were processed

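Livers of 31 pups were profiled by RNA sequencing of TRIzol-extracted total RNA with a stranded mRNA kit, per the labels' protocols. The authors deposited 1 table of counts per gene with a column per liver. Its column names carry mm10, while the submitters' processing notes name GRCh38, and the notes list bcl2fastq, Trimmomatic, BWA 0.7.10 and DESeq without their roles. The counting tool, its strand setting and the annotation are not given in the sources used here. The lowest deposited count is 1, held by 50.1% of values, so 1 appears to have been added throughout.

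Groups were taken from the labels. The 28 genes and all lists were chosen with earlier results of these data known. Counts were analysed as deposited with edgeR 4.0.16 (R 4.3.3): filterByExpr kept 17057 of 43629 genes, libraries were scaled by TMM, and 1 quasi-likelihood model with a mean per group was fitted to all 31 libraries. Adjusted p-values are Benjamini-Hochberg values over all tested genes, called under 0.05; intervals are ±1.96 SE. The pipeline was run on simulated data with changes placed in the T3+T4 group only and read in T3+T4 against vehicle. The outcome is not given here, and the other comparisons were not checked in this way.

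Named genes are the 3 with the smallest adjusted p in each comparison with vehicle or control and in T4 against T3; of other lists, at most 2 were to be named per comparison, and Srebf1, Mbtps1, Mbtps2 and the rise of Mmab were added after their values were seen. The other members are given more briefly. A result of the list of SREBP processing is not reported here. Gene positions and exon lengths are from GENCODE M21 (mm10), which matched 97.3% of identifiers. Promoters are from RefSeq (GRCm38.p6). Animal numbers are unique to a liver, so no samples were paired. Depth gave these 28 genes between 15 and 3102 counts per library. The alternatives were other scalings, filters, covariates and subsets of libraries, DESeq2 1.42.0, leaving out each library in turn and, chosen after seeing the data, leaving out the 4 libraries whose named sex did not match Xist and Y-linked genes.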

Additional observations from a re-analysis of the deposited data

Results flagged for a closer look

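In 7 of the 140 sets formed by 1 gene in 1 group, 1 liver lay apart from the others by Dixon's criterion at the 95% level, which chance meets in about 1 of 20 sets. T3 animal 68 was the high liver for Mvk at 35.46 CPM (next 20.73), for Sqle at 95.71 CPM (next 31.17) and for Dhcr7 at 102.2 CPM (next 66.22). T3 animal 61 was high for Mylip at 161.5 CPM (next 106.3). Vehicle animal 67 was high for Srebf2 at 110.3 CPM (next 84.93). T4 animal 54 was high for Lbr at 62.55 CPM (next 47.86), and T4 animal 46 for Scap at 244.9 CPM (next 205.6).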

How the results depend on the processing

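No called value of a single gene changed direction under any alternative run. Over the 28 genes and all comparisons 121 calls were lost and 60 gained under other settings, and 186 lost and 79 gained with 1 library left out. Of the 28 genes, 11 differed between vehicle and control, against 7 without the libraries with raised acinar or muscle markers, 0 among animals 54 to 85 alone and 7 to 13 with 1 library left out. For T4 against vehicle the count of 1 became 0 with no filter on low counts, with only the groups compared, with sex as a covariate, without raised libraries, among animals 54 to 85 and without the libraries of unmatched sex, and 0 to 1 with 1 library left out. For T3 against vehicle the count of 4 became 0 with only the groups compared, 1 with sex as a covariate, 2 with the log2 library total as a covariate, 0 without raised libraries, 0 among animals 54 to 85, 1 without the libraries of unmatched sex and 1 to 6 with 1 library left out. For T3+T4 against vehicle 18 became 10 among animals 54 to 85. For T4 against control 9 became 5 with no filter, 4 with sex as a covariate, 1 without raised libraries, 0 among animals 54 to 85 and 1 to 10 with 1 library left out. For T3 against control 0 became 1 with DESeq2 and 0 to 1 with 1 library left out. For T3+T4 against T4 17 became 11 without raised libraries. For T3+T4 against T3 0 became 7 with the log2 library total as a covariate, 11 with DESeq2, 11 without the libraries of unmatched sex and 0 to 8 with 1 library left out. Subsets hold fewer libraries by construction, and the cause of the changes was not tested. Where no share of all genes is given, a lower count cannot be told from fewer calls over all genes. Leaving out the 4 libraries of unmatched sex was chosen after seeing the data, and without them the counts for T4 against T3, T3 against control, T3+T4 against control and the interaction were also 0. The animals 54 to 85 hold 1 control liver, assumed to vary like the other groups. No paired analysis was possible because each animal number belongs to 1 liver. Library depth, litters and doses limit these results: Mvd had as few as 15 counts in a library, and litters and doses are not given in the sources used here.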
